A study of Drosophila melanogaster with 6 samples.

Results

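The JAK/STAT pathway of Drosophila melanogaster was examined in nascent RNA of stage 5 embryos through 7 genes, taken by symbol from the 17753 genes of the count table. They are the ligands upd1, upd2 and upd3, the receptor dome, the kinase hop, the transcription factor Stat92E and the feedback inhibitor Socs36E. All 7 were found, and all 7 passed the filter on low counts, a mean of 10 reads or more across the 6 libraries. Nascent transcription was measured by GRO-seq, a run-on assay in isolated nuclei that marks transcripts in the course of their synthesis with biotin, so that only these are captured for sequencing. Per the labels and the methods, Ctrl embryos (genotype label t180) came from the TRiP control line, and DomKD embryos (t216) came from mothers with a short hairpin RNA against domino (dom) under the germline driver mat-alpha-Gal4, which depletes the transcript that the mother puts into the egg. Domino is a chromatin remodeller that deposits H2A.Z, a variant of histone H2A. Each group had 3 libraries, each made from pooled embryos. The sample titles mark each library with the letter A or B without saying what it means, and the letters are taken here as 2 batches. They were not balanced: batch A had 1 Ctrl library (A1) and a pair of DomKD libraries (A1 and A2). Batch B had a pair of Ctrl libraries (B1 and B2) and 1 DomKD library (B1).

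In this pathway the secreted Unpaired ligands bind the receptor Domeless, which activates the Janus kinase Hopscotch, and Hopscotch phosphorylates Stat92E, which enters the nucleus and binds DNA. In the blastoderm upd1 is transcribed from the zygotic genome in stripes, while the mother supplies the egg with dome, hop and Stat92E transcripts. The pathway is known at this stage for its part in pair-rule stripes and in sex determination through Sxl. GRO-seq reads come from engaged polymerases, so the values of dome, hop and Stat92E given here are their transcription in the embryo and not the maternal RNA.

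The 3 ligand genes lie together on the X chromosome (dm6): upd2 from 18240654 to 18243284 on the minus strand, upd3 from 18277233 to 18284596 on the plus strand, and upd1 from 18305354 to 18309291 on the minus strand. The gaps between neighbours are 33.9 kb and 20.8 kb, and the whole interval spans 68.6 kb, in which the annotation has 4 other genes. The receptor and kinase genes are also on X, on the minus strand: dome from 19676061 to 19683518 and hop from 11360930 to 11368098. Stat92E lies on 3R from 20535323 to 20552311, and Socs36E on 2L from 18138675 to 18152417, both on the minus strand. Reads were counted by strand. Of the 7, Stat92E is the one with a gene on its own strand inside it, an INE-1 element that shares 62 bases, and Socs36E has a long noncoding RNA gene on the opposite strand.

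Upstream of the annotated gene start, 250 bases are printed for upd1 and 120 for upd2, dome and hop. These set the ligand genes called higher in the main test, given below, beside a receptor gene and a kinase gene that were not called higher in it. Sequences are from the dm6 genome, in the direction of transcription, with capitals for matches to the motifs listed next.
upd1: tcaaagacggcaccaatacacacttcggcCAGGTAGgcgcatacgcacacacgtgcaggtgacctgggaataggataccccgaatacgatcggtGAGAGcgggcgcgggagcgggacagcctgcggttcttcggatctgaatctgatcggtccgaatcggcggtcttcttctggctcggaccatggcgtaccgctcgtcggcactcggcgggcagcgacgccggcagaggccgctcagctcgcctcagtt
upd2: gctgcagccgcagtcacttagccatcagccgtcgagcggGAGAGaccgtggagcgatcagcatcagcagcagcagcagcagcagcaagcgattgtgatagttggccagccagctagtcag
dome: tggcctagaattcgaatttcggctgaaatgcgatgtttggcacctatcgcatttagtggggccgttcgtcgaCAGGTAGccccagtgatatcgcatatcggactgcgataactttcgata
hop: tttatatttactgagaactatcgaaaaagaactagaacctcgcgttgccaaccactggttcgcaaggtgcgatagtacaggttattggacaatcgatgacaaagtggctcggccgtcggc
The windows are chrX:18309292-18309541 for upd1, chrX:18243285-18243404 for upd2, chrX:19683519-19683638 for dome and chrX:11368099-11368218 for hop, all on the minus strand. The GC content was 63.2% in the printed upd1 window. Over the last 120 bases it was 65.8% for upd1, 60.8% for upd2, 49.2% for dome and 46.7% for hop. It was 48.3% for Socs36E, which was also called higher, 45.8% for the ligand gene upd3 and 37.5% for Stat92E. High GC was thus shared neither by all ligand genes nor by all genes called higher. upd1 has 3 annotated transcript starts that lie up to 1032 bases apart, and its window is in front of the most upstream one.

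Both strands were searched from 250 bases before to 50 bases after the start of each gene. The motifs were CAGGTAG, its variant CAGGTAA and the related TAGGTAG (the TAGteam motifs bound by the pioneer factor Zelda), TTCNNNGAA (the core of the Stat92E site), TATCGATA (DRE), GGTCACACT (the core of Ohler1, found at housekeeping promoters) and GAGAG (the letters bound by GAGA factor). Among 17549 windows of this length, 5.46% held at least 1 TAGteam motif, 1.62% held CAGGTAG, 2.36% held CAGGTAA, 1.79% held TAGGTAG, 9.13% held TTCNNNGAA, 7.62% held TATCGATA, 4.92% held GGTCACACT and 29.5% held GAGAG. The TAGteam motif CAGGTAG was found at -221 in upd1 and at -48 in dome, where positions count from the gene start. GAGAG was found at -156 in upd1, at -81 in upd2 and, on the opposite strand, at -22 in upd3. dome also held GGTCACACT at position 4, and hop held TTCACTGAA at position 37. None of these letters was found in the windows of Stat92E and Socs36E. Stat92E has 2 annotated transcript starts 1204 bases apart, and only the window at the most upstream one was searched. These are matches of letters, with no measurement of binding.

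Total counts were between 10660708 and 24537992 reads per library. Duplicate reads were not removed before counting, so the reads of a gene are not independent molecules. The intervals given come from the spread between libraries, moderated by the spread of other genes. Between 564 and 1014 of the tested genes had no read in a DomKD library, against 162 to 326 in a Ctrl library. In the main test (edgeR, TMM scaling, batch and group in the model) 10429 genes were tested and 2264 were called at an adjusted p of 0.05, which is 21.7%. Of the genes tested 12.1% were higher and 9.64% were lower in DomKD, and in 40.6% the 3 DomKD libraries did not overlap the 3 Ctrl libraries. The knocked-down gene itself, dom, changed by 0.012 (SE 0.18, edgeR adjusted p 0.973). RNAi against maternal mRNA is not read out by nascent reads of the embryo, so this value does not check the label. The yolk protein genes Yp1, Yp2 and Yp3, markers of ovary or fat body, were low; Yp3 had the highest level, 7.98 ± 2.32 CPM in Ctrl and 2.05 ± 1.92 CPM in DomKD (SD, n = 3 each), with no overlap between groups (log2 fold change -1.91, edgeR adjusted p 0.235). Its part in the results was not tested.

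In the main test, with TMM scaling, the ligand genes upd1 and upd2 and the feedback inhibitor Socs36E had higher values in DomKD embryos. The kinase gene hop had lower values, and dome, Stat92E and upd3 were not called. The TMM factor, which multiplies the total of a library, was 1.13 to 1.29 in Ctrl and 0.826 to 0.848 in DomKD. It thus raised the values of every gene in DomKD relative to Ctrl, compared with scaling by total counts. Mean normalised read counts (CPM, counts scaled to a common library size) rose 2.66-fold for upd1, 3.81-fold for upd2 and 1.99-fold for Socs36E, and that of hop was 1.64-fold lower. These ratios of group means take no account of the unbalanced batches, and upd1 was higher in batch A, which held more DomKD than Ctrl libraries. With batch in the model the log2 fold changes were 1.14 (upd1), 1.80 (upd2), 1.00 (Socs36E) and -0.63 (hop). Thus 3 of the 7 genes were higher and 1 was lower, against 12.1% and 9.64% of all tested genes. In 5 of 7 the groups did not overlap, against 40.6%. Overlap was judged on TMM-scaled values, and for upd1 and Stat92E it was different with total counts. The median log2 fold change of the 7 was 0.44, and that of all tested genes was -0.072. The 7 were chosen with earlier results of these data known, so these counts are a description and not a test. The directions depend on how libraries are scaled, and the values under each scaling are given after the genes.

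**Figure D1:**
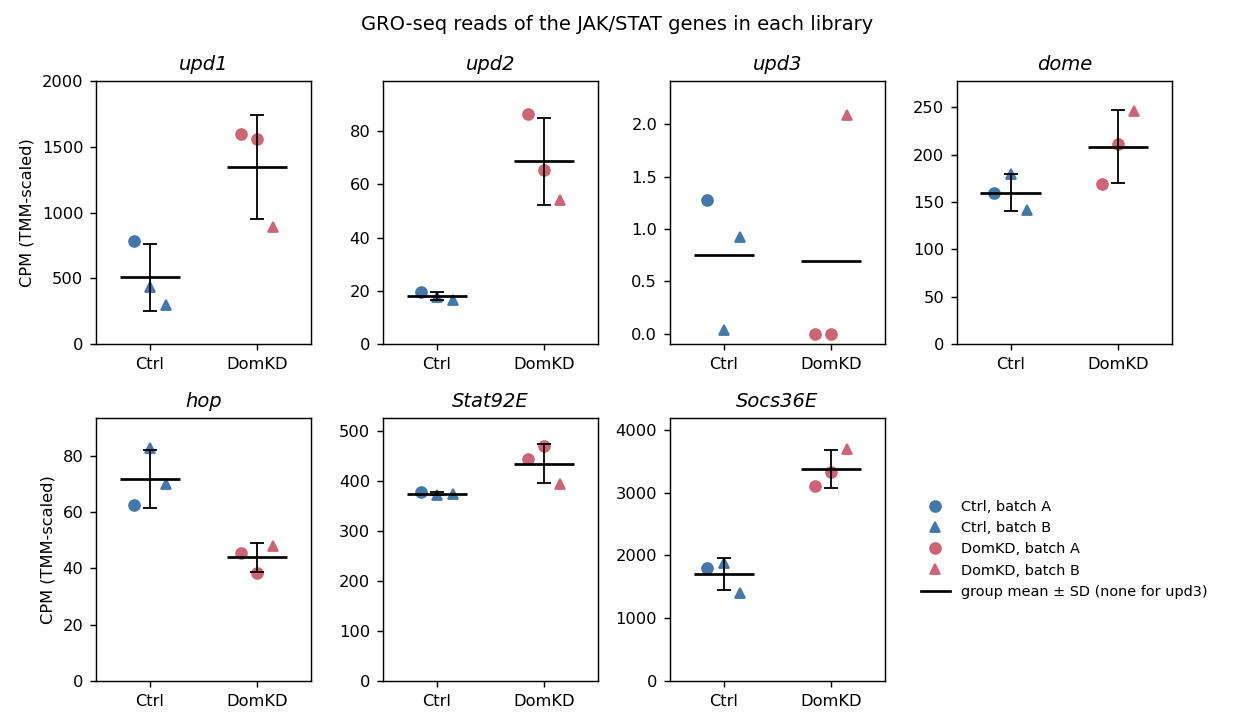
Normalised GRO-seq read counts of the 7 genes, in CPM (scaled to a common library size by TMM) on linear axes, in the 3 Ctrl and 3 DomKD libraries, with circles for batch A, triangles for batch B, and the group mean ± SD (no SD for upd3, with 2 libraries at 0). On this TMM scale the groups do not overlap for upd1, upd2, hop, Stat92E and Socs36E, and they overlap for upd3 and dome.

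upd1 encodes the main Unpaired ligand of the early embryo. Its normalised read count was 788.2 (A1), 435.7 (B1) and 300.0 CPM (B2) in the Ctrl libraries, and 1595.3 (A1), 1559.4 (A2) and 892.8 CPM (B1) in the DomKD libraries. With TMM scaling the groups did not overlap, but the lowest DomKD library lay only a little above the highest Ctrl library. As a share of total counts they overlapped, with Ctrl A1 (11115 of 12487166 reads) above DomKD B1 (11942 of 15790602 reads). In each group the libraries of batch A were above those of batch B. The means were 508 ± 252 CPM in Ctrl and 1349 ± 396 CPM in DomKD (SD, n = 3 each). The log2 fold change, with batch in the model, was 1.14 (SE 0.18, 95% interval 0.74 to 1.54, edgeR adjusted p 0.00168). It was 1.00 in batch A alone and 1.30 in batch B alone.

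upd2 encodes a second ligand of the same family and had a far lower level. It gave 19.7 (A1), 17.7 (B1) and 16.6 CPM (B2) in the Ctrl libraries, and 86.3 (A1), 65.5 (A2) and 54.1 CPM (B1) in the DomKD libraries. Every DomKD library was well above the narrow range of the Ctrl libraries, and the means were 18 ± 1.57 and 68.6 ± 16.3 CPM (SD, n = 3 each). The log2 fold change was 1.80 (SE 0.24, 95% interval 1.28 to 2.32, edgeR adjusted p 0.000849), the largest of the 7 genes in the main test. It was 1.92 in batch A alone and 1.65 in batch B alone.

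upd3, the third ligand gene, is known in larvae and adults as a cytokine induced by infection and damage, and it was close to silent here. Its raw counts were 18 (A1), 1 (B1) and 24 reads (B2) in the Ctrl libraries, and 0 (A1), 0 (A2) and 28 reads (B1) in the DomKD libraries. The groups overlapped, and libraries of the same group were as far apart as libraries of different groups. The fitted log2 fold change of -1.19 (SE 2.78, 95% interval -7.28 to 4.90, edgeR adjusted p 0.8) leaves the direction unsettled. A difference of upd3 was not detectable with these counts.

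Between the ligands, upd1 took nearly all reads. Its share of the reads of the 3 ligand genes was 97.4% (A1), 96.1% (B1) and 94.5% (B2) in the Ctrl libraries, and 94.9% (A1), 96% (A2) and 94.1% (B1) in the DomKD libraries. The groups overlapped in this share. Per kilobase, the ratio of upd1 to upd2 was 18.4 ± 7.52 in Ctrl and 13.1 ± 2.52 in DomKD (SD, n = 3 each), also with overlap. So the higher values of both ligands in DomKD did not come with a ratio between them that separated the groups.

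dome encodes the receptor of the Unpaired ligands. It gave 159.4 (A1), 179.9 (B1) and 141.2 CPM (B2) in the Ctrl libraries, and 169.5 (A1), 211.1 (A2) and 245.7 CPM (B1) in the DomKD libraries. DomKD A1 lay within the range of the Ctrl libraries and the other two lay above it. The log2 fold change was 0.44 (SE 0.17, 95% interval 0.054 to 0.82), with an edgeR adjusted p of 0.097, and it was 0.25 in batch A alone and 0.62 in batch B alone. dome passed the threshold with DESeq2 (0.48, adjusted p 0.0454), when only genes averaging 100 or more counts were tested (0.50, edgeR adjusted p 0.0349) and without DomKD A1 (0.52, edgeR adjusted p 0.0294). It passed as lower when libraries were scaled on Zelda targets (-0.57, edgeR adjusted p 0.0182).

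hop encodes the Janus kinase bound to the receptor. It gave 62.7 (A1), 82.9 (B1) and 70.0 CPM (B2) in the Ctrl libraries, and 45.5 (A1), 38.3 (A2) and 48.0 CPM (B1) in the DomKD libraries. All DomKD libraries were below all Ctrl libraries, with means of 71.9 ± 10.2 and 43.9 ± 5.03 CPM (SD, n = 3 each). The log2 fold change was -0.63 (SE 0.20, 95% interval -1.07 to -0.18), and the edgeR adjusted p of 0.0469 lay just inside the threshold. The value was -0.59 in batch A alone and -0.67 in batch B alone. Over 16 other settings hop stayed negative, from -1.97 to -0.56, and passed the threshold in 6 of them. Leaving out any library other than DomKD A1 ended the call, with edgeR adjusted p values from 0.0745 to 0.234.

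Stat92E encodes the transcription factor of the pathway, and its level hardly varied among Ctrl libraries. It gave 377.5 (A1), 372.0 (B1) and 373.3 CPM (B2) in the Ctrl libraries, and 443.3 (A1), 469.4 (A2) and 393.3 CPM (B1) in the DomKD libraries. With TMM scaling the groups did not overlap, as in 40.6% of all tested genes. The difference was small, with means of 374 ± 2.87 and 435 ± 38.7 CPM (SD, n = 3 each). The log2 fold change was 0.18 (SE 0.15, 95% interval -0.15 to 0.50, edgeR adjusted p 0.451), and it was 0.27 in batch A alone and 0.078 in batch B alone. As a share of total counts, every DomKD library lay below every Ctrl library instead. The nearest were Ctrl A1 (5324 of 12487166 reads) and DomKD A2 (4228 of 10660708 reads).

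Socs36E encodes a suppressor of cytokine signalling that Stat92E induces and that dampens the pathway, and it had the most reads of the 7 genes. It gave 1804.8 (A1), 1880.0 (B1) and 1405.0 CPM (B2) in the Ctrl libraries, and 3109.4 (A1), 3324.5 (A2) and 3697.4 CPM (B1) in the DomKD libraries. The groups were clearly apart, with means of 1697 ± 255 and 3377 ± 298 CPM (SD, n = 3 each). The log2 fold change was 1.00 (SE 0.18, 95% interval 0.60 to 1.40, edgeR adjusted p 0.00321), and it was 0.83 in batch A alone and 1.19 in batch B alone.

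Without DomKD B1, after which batch A alone holds both groups, just 9 genes of the whole table were called, and upd1 (1.00, edgeR adjusted p 0.0909), upd2 (1.94, 0.0551), Socs36E (0.83, 0.115) and hop (-0.58, 0.234) were no longer among those past the threshold. Without Ctrl A1, the only Ctrl library of batch A, 647 genes were called, with upd1 (1.22, edgeR adjusted p 0.0408), upd2 (1.59, 0.033) and Socs36E (1.11, 0.044) among them. Without Ctrl B1 1295 genes were called, and without Ctrl B2 1351. These embryos were sequenced whole, so more cells that transcribe a gene and more transcription per cell cannot be told apart.

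To set the zygotic ligands against the components that the mother also supplies, levels were compared per length, as RPKM, the CPM divided by the deposited gene length in kilobases. In Ctrl the order of mean levels was upd1 (129 RPKM), Socs36E (123), Stat92E (22), dome (21.5), hop (10), upd2 (6.84) and upd3 (0.101). The library values of upd1 and Socs36E overlapped, as did those of Stat92E and dome, and all other neighbours in this order were apart. In DomKD the order was upd1 (343 RPKM), Socs36E (246), dome (28), upd2 (26.1), Stat92E (25.6), hop (6.13) and upd3 (0.0948). There dome, upd2 and Stat92E formed a run of overlapping neighbours, and upd1 again overlapped Socs36E. upd2 thus stood below hop in Ctrl, at 6.32 to 7.49 against 8.74 to 11.6 RPKM, and above it in DomKD, at 20.5 to 32.8 against 5.34 to 6.7 RPKM.

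Ratios between genes within a library do not change with the scaling of libraries. The ratio of upd1 to Stat92E per length was 9.01 (A1), 5.05 (B1) and 3.47 (B2) in the Ctrl libraries, and 15.5 (A1), 14.3 (A2) and 9.79 (B1) in the DomKD libraries. That of upd1 to hop was 22.9, 9.57 and 7.8 in Ctrl, and 63.8, 74.1 and 33.9 in DomKD. The groups did not overlap in either ratio, and within each batch the DomKD mean was higher. The ratio of upd1 to dome was 5.99 ± 2.93 in Ctrl and 12.9 ± 5.55 in DomKD (SD, n = 3 each), and here the groups overlapped.

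Ratios among the other genes were compared in the same way. The ratio of dome to hop per length was 2.44 (A1), 2.09 (B1) and 1.94 (B2) in the Ctrl libraries, and 3.58 (A1), 5.3 (A2) and 4.92 (B1) in the DomKD libraries. The ratio of Socs36E to Stat92E was 5.91, 6.25 and 4.65 in Ctrl, and 8.67, 8.75 and 11.6 in DomKD. The groups did not overlap in either ratio. How many gene pairs of the whole table separate the groups in this way was not computed, and 40.6% of single tested genes did so. With 3 libraries against 3, a two-sided exact permutation test cannot give a p below 0.1, so these ratios are given as values without a test.

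**Figure D2:**
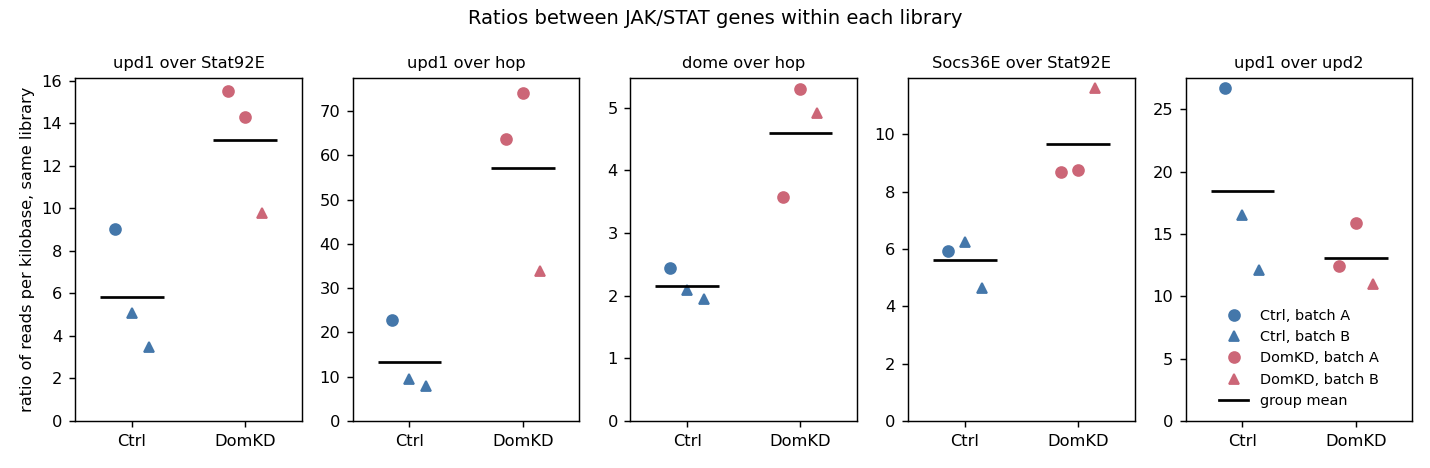
Ratios of reads per kilobase between pairs of JAK/STAT genes within the same library, for 3 Ctrl and 3 DomKD libraries, with circles for batch A, triangles for batch B and a bar for the group mean, on linear axes from 0. The DomKD libraries lie above the Ctrl libraries for upd1 over Stat92E, upd1 over hop, dome over hop and Socs36E over Stat92E, and the groups overlap for upd1 over upd2.

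As a single contrast, the mean log2 CPM of upd1 and upd2 minus that of dome, hop and Stat92E was -0.82 ± 0.44 in Ctrl and 0.91 ± 0.46 in DomKD (SD, n = 3 each). The difference was 1.73, with 1.48 in batch A alone and 1.47 in batch B alone, and the groups did not overlap. With upd3 included, as the full set of ligands, the values were -3.23 ± 0.79 and -2.38 ± 0.50 and the groups overlapped. The difference was then 0.85, but -0.18 in batch A alone and 1.79 in batch B alone, since upd3 had no reads in the DomKD libraries of batch A. These contrasts describe the 6 libraries and carry no p.

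The scaling of libraries moved the genes together, and the calls changed with it. RLE and upper quartile scaling gave nearly the same values as TMM, except that hop missed the threshold (-0.58, edgeR adjusted p 0.0671, and -0.60, edgeR adjusted p 0.0578). With total counts the median of all tested genes was -0.56. upd1 (0.66, edgeR adjusted p 0.00544), upd2 (1.32, 0.00377) and Socs36E (0.53, 0.0115) were still higher, hop was lower (-1.11, 0.00286), and dome (-0.042, 0.879) and Stat92E (-0.31, 0.115) turned negative without a call.

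Scaling on Zelda target genes, as the methods of the study did with a set of their own, gave another picture. By RNA-seq the study reported no change in transcript levels of Zelda-dependent genes in DomKD. By GRO-seq it reported stronger downregulation of H2A.Z-positive than of H2A.Z-negative genes. TMM takes most genes to be unchanged, and which scaling holds for these libraries was not tested. For the Zelda scaling here, a list written from general knowledge was used, of which 43 genes were tested. In the main test 42 of these 43 were higher in DomKD, with a median of 1.13, and this scaling sets their typical change to 0 by construction. What part their shift has in the values of upd1, upd2 and Socs36E was not tested. The median of all tested genes then was -1.09, with 83 genes higher and 4815 lower. upd1 (0.13, edgeR adjusted p 0.43), upd2 (0.78, 0.0696) and Socs36E (-0.0046, 0.98) were not called, while dome (-0.57, 0.0182), hop (-1.64, 0.000125) and Stat92E (-0.84, 0.000958) were lower.

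**Figure D3:**
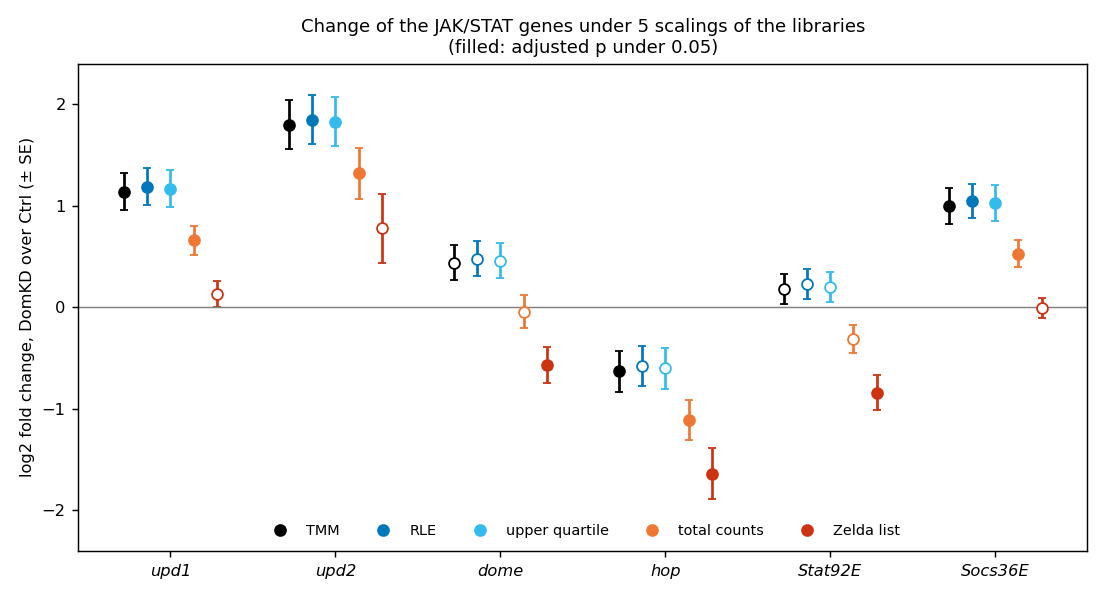
Log2 fold change of DomKD over Ctrl (± SE, edgeR with batch and group) for 6 of the genes under 5 scalings of the libraries, with filled points where the adjusted p is under 0.05; upd3 is left out because its SE is 2.78. The points of every gene move down from TMM to total counts and further to the Zelda list, so that upd1 goes from 1.14 to 0.13 and Stat92E from 0.18 to -0.84.

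Other genes that act on the pathway were taken from a list of 9 regulators, all of which were tested: 1 was higher, 1 was lower and 7 were not called. Each direction thus took 11.1% of the list, near the 12.1% and 9.64% of all tested genes. ken, a repressor that competes for Stat92E sites, was higher (0.85, SE 0.20, edgeR adjusted p 0.0118), although DomKD A1 with 117.4 CPM lay within the Ctrl range of 91.4 to 122.4 CPM. Total counts gave ken 0.37 (edgeR adjusted p 0.219), and the Zelda list gave -0.17 (0.633). Su(var)2-10, the PIAS-type SUMO ligase that inhibits Stat92E, was lower (-0.90, SE 0.15, edgeR adjusted p 0.00195), with 212.4 to 292.2 CPM in Ctrl and 104.9 to 156.6 CPM in DomKD. Its direction was negative under all scalings, with -1.38 from total counts and -1.92 from the Zelda list.

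The remaining 7 regulators gave values on both sides of 0. Socs16D (0.86, edgeR adjusted p 0.0907) and Socs44A (0.41, 0.296), both relatives of Socs36E, and the phosphatase gene Ptp61F (0.36, 0.116) were positive without a call, as was the receptor-like et (0.22, 0.661). The bromodomain protein gene BRWD3 (-0.36, 0.128), the SUMO-conjugating enzyme gene lwr (-0.12, 0.731) and the endosomal adaptor gene Stam (-1.27, 0.148) were negative without a call. The median of the 9 was 0.22, beside -0.072 for all tested genes and -0.14 for the 1674 tested genes of X.

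A second list held 10 genes reported as targets of the pathway, of which 9 were tested: 6 were higher, against 12.1% of all tested genes, and 3 were not called, with a median of 0.91 against -0.072. The list was written from general knowledge with earlier results of these data known, so its count is a description and not a test. Of the Zelda target list used for scaling, 42 of 43 tested genes were higher, with a median of 1.13. The rise was thus not particular to the targets. No target was lower in edgeR, at an unadjusted p of 0.05 either, or in DESeq2. The 6 were the pair-rule genes eve (0.98, edgeR adjusted p 0.00223) and run (1.00, 0.00215), the sex-determination switch gene Sxl (0.91, 0.00773), the tracheal regulator gene trh (1.24, 0.00537), the polarity gene crb (1.10, 0.0022) and zfh1 (0.72, 0.00667), a transcription factor gene of the mesoderm and of stem cells. In all 6 the TMM-scaled values of the groups did not overlap, as in 40.6% of all tested genes, called or not. As a share of total counts, the groups overlapped for run, Sxl and zfh1. eve, which forms stripes in the blastoderm, gave 932.4 (A1), 548.7 (B1) and 532.3 CPM (B2) in the Ctrl libraries, and 1543.9 (A1), 1539.7 (A2) and 1268.9 CPM (B1) in the DomKD libraries. Sxl gave 2787.9, 2029.1 and 1400.3 CPM in Ctrl and 5948.0, 5430.0 and 2957.0 CPM in DomKD, which places Ctrl A1 close under DomKD B1, as for upd1.

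Of the targets without a call, vvl was 0.58 (edgeR adjusted p 0.0795), chinmo was 0.27 (0.838) and TotM was -1.02 (0.725), the last a stress-induced gene with reads in 5 of the 6 libraries. TotA, of the same family, had reads in 1 library of each group and was not tested. With total counts 4 of the 9 targets were higher (eve, run, Sxl and crb). With the Zelda list the 6 genes gave 0.23 (trh), 0.10 (crb), -0.019 (run), -0.039 (eve), -0.099 (Sxl) and -0.30 (zfh1), with edgeR adjusted p values between 0.162 and 0.938. Without DomKD B1 the calls of ken, Su(var)2-10 and all 6 targets were lost, with adjusted p values from 0.0578 for Su(var)2-10 to 0.212 for ken. Without Ctrl A1 the calls of Sxl (0.72, edgeR adjusted p 0.146), trh (0.92, 0.132), crb (1.11, 0.0522) and ken (0.88, 0.125) were lost, which left 3 of the 6 targets, and ken was also lost without Ctrl B1 (0.80, 0.0644).

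**Figure D4:**
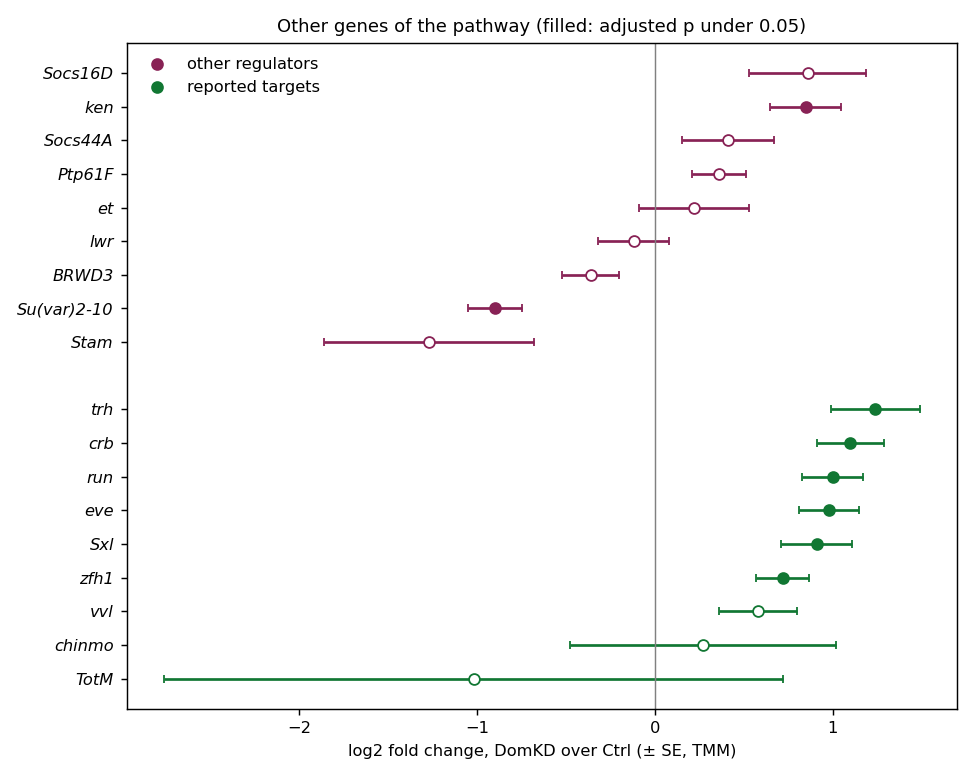
Log2 fold change of DomKD over Ctrl (± SE, edgeR with TMM, batch and group) of 9 other regulators of the pathway and 9 reported targets, ordered by value, with filled points where the adjusted p is under 0.05. Among the targets 6 are filled and positive, from 0.72 for zfh1 to 1.24 for trh, and among the regulators ken (0.85) and Su(var)2-10 (-0.90) are filled.

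To see which genes had a pattern most like each member, log2 CPM was correlated over the 6 libraries with 7370 other tested genes averaging 100 or more counts. The gene most like upd1 was tutl, which encodes an immunoglobulin-family membrane protein (Pearson r 0.999), and it changed by 1.15. The gene most like upd2 was noc, which encodes a zinc-finger protein (0.999), and for Socs36E it was jumu, which encodes a forkhead transcription factor (0.998). For hop it was Vap33, a gene of membrane contact sites (0.994), for dome Tbcd, a tubulin-folding cofactor gene (0.989), for Stat92E cN-IIIB, a nucleotidase gene (0.986), and for upd3 CG1582 (0.994). These points share libraries, batches and depth, and 300 genes had an r above 0.95 with upd1, 323 with upd2, 219 with Socs36E and 188 with hop, against 43 with Stat92E, 27 with dome and 4 with upd3. The correlations are descriptions over 6 libraries that include the difference between groups. A like pattern did not always come with a like size of change: noc changed by 0.92 (upd2 1.80) and cN-IIIB by 0.76 (Stat92E 0.18). The others changed by 0.90 (jumu), -0.85 (Vap33), 0.22 (Tbcd) and -0.045 (CG1582).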

How the data were processed

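Nascent RNA was measured by GRO-seq in 3 Ctrl and 3 DomKD libraries. The authors deposited a table of raw counts, whole reads per gene without normalization, beside a gene length, which equalled the annotated span for 99.31% of matched genes. Per the methods and labels, adapters were trimmed with cutadapt 2.5, random tetramers were taken off with UMI-tools 1.0, reads were aligned to dm6 with Bowtie2 in local mode, alignments of low mapping quality were removed, and featureCounts counted by strand without removal of duplicates. Names and positions came from Ensembl 115 (dm6), which held the FlyBase identifiers of 17626 of 17753 genes and lacked 127. ATG stood at 99.83% of 30618 annotated start codons in the genome used.

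Counts were tested with edgeR 4.0.16 in R 4.3.3 (glmQLFit with robust estimation, glmQLFTest, two-sided, TMM, batch and group), for genes averaging 10 or more counts, with Benjamini-Hochberg adjustment over all 10429 genes. An SE is the size of the change over the square root of F. CPM used TMM-scaled totals, and log2 CPM a prior count of 2. DESeq2 1.42.0, other scalings, filters and covariates, and the omission of each library were alternatives. The pipeline was tested on simulated data. Windows of 300 bases around gene starts were taken from the genome. Each library was kept as 1 sample. Counts of each pair of libraries differed by at least 33.2 times sampling noise (chi-square per gene). Duplicate reads also raise this value, so it cannot show that the libraries are independent. The p-values use the spread between these libraries, moderated by the spread of other genes.

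The genes named are the 7 members, all genes of both pathway lists (written from general knowledge) and, for each member, the gene with the highest correlation. The members and lists were chosen with earlier results of these data known.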

Additional observations from a re-analysis of the deposited data

How the results depend on the processing

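Over the alternatives, upd1, upd2 and Socs36E each kept the call in 13 of 16 other settings and hop in 6 of 16. The calls of the first 3 were lost with the Zelda list, with DESeq2 on Zelda list size factors without batch, and without DomKD B1. The Zelda list scaling called 4898 genes and gave 0.13 for upd1, 0.78 for upd2, -0.0046 for Socs36E, -0.57 for dome and -0.84 for Stat92E, and, among the lists, -0.79 for et, -0.66 for Ptp61F, -0.17 for ken, -0.16 for Socs16D, -0.61 for Socs44A, -0.039 for eve, -0.019 for run, -0.099 for Sxl, -0.43 for vvl, -0.30 for zfh1 and -0.77 for chinmo. DESeq2 with those size factors and no batch term called 4909 genes and gave 0.25 for upd1, 0.66 for upd2, -0.21 for Socs36E, -0.83 for dome and -1.05 for Stat92E, and -1.06 for et, -0.96 for Ptp61F, -0.52 for ken, -0.14 for Socs16D, -0.72 for Socs44A, -0.066 for eve, -0.011 for Sxl, -1.13 for vvl, -0.11 for crb, -0.55 for zfh1 and -0.89 for chinmo. Total counts gave -0.042 for dome, -0.31 for Stat92E, -0.26 for et, -0.12 for Ptp61F, -0.076 for Socs44A and -0.22 for chinmo. The share of higher genes among those called was 55.6% with TMM, 60.9% with RLE, 58.9% with upper quartile, 16.4% with total counts and 1.69% under Zelda list scaling. hop missed the threshold with RLE (-0.58), upper quartile (-0.60), only genes averaging 100 or more counts (-0.56) and no batch term (-0.71). dome passed it as higher with genes averaging 100 or more counts (0.50), with DESeq2 (0.48) and without DomKD A1 (0.52), and as lower with the Zelda list scaling (-0.57).

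The replicate block in place of batch called 1035 genes and gave -0.72 for hop, which was not called (edgeR adjusted p 0.0889). It also ended the calls of Sxl (0.0553), zfh1 (0.0659) and ken (0.103), which left 4 of 6 targets called. Same-numbered libraries had correlations of their deviations of 0.20 (A1 with A1) and 0.24 (B1 with B1) where they shared a batch and between -0.36 and -0.096 where they did not, so the number alone was not taken to pair them. Leaving out 1 library gave 9 to 3082 genes called, 1.00 to 1.25 for upd1, 1.59 to 1.94 for upd2, -3.34 to 2.04 for upd3, 0.25 to 0.55 for dome, -0.73 to -0.56 for hop, 0.015 to 0.27 for Stat92E, 0.83 to 1.11 for Socs36E and 0.47 to 1.22 for ligands minus receptor and transducers. The sign of upd3 turned without Ctrl A1 (2.04), without DomKD A1 (0.29), without DomKD A2 (0.27) and within batch B (2.46). Over the same omissions chinmo ranged from -0.61 to 1.08 and et from -0.31 to 0.68. For ligands minus receptor and transducers, batch A gave -0.18 and batch B gave 1.79. Of the 9 regulators, higher and lower calls were 0 and 3 for total counts, where 26.3% of all tested genes were lower, 0 and 5 for the Zelda list, where 46.2% were, 0 and 4 for DESeq2 on its size factors, 0 and 1 with no batch term or the replicate block, and 2 and 1 with DESeq2 or genes averaging 100 or more counts; neither Zelda list setting called a target. The cause of these changes was not tested. The values of upd3, TotA and TotM rest on low mean counts (11.8, 8.83 and 38.8). That of chinmo had a mean count of 105 and an SE of 0.75.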
